A study of Mus musculus with 8 samples.

Results

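Matrix metalloproteinases (MMPs), their tissue inhibitors (TIMPs) and the ADAMTS proteases were examined in fibroblasts sorted from the adult mouse lung. The genes were taken by symbol: every probe whose gene name in the scanner files is Mmp, Timp or Adamts followed by a number was a member, which gave 66 of 55681 probes and 46 genes (23 Mmp, 4 Timp and 19 Adamts genes). Of these, 37 genes (17 Mmp, 4 Timp and 16 Adamts) had a probe well above background on both replicates of some group and were tested, out of 17253 genes tested on the array. The other 9, given below, had none.

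Lungs were taken from adult female C57BL/6 animals 12 to 16 weeks old, with no genotype change or treatment named for any group. The 4 groups, each of 2 independently prepared samples of 50000 cells, were the dissociated lung cells (pulmonary single cells, Pu) and fibroblasts sorted from such a suspension as A-type, B-type or C-type. Antibodies against E-Cadherin, CD31, CD45, TER119, Lyve-1 and CD146 marked other lineages, and antibodies against Pdgfra, Sca-1 and Thy-1 were used with them. The combination of markers that defines each type, and how many mice stand behind a sample, are not given in the sources used here. For each sample, 10 ng of RNA was amplified, labelled with Cy3 and hybridised to a one-colour Agilent array, and the 8 arrays are called Pu1, Pu2, A1, A2, B1, B2, C1 and C2. A p-value here measures the spread between separately prepared samples, which may not be separate animals.

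MMPs are zinc-dependent proteases that are made as inactive precursors and cut collagens, elastin, proteoglycans and other matrix proteins once the propeptide is removed. TIMPs bind the active site of MMPs and, in the case of TIMP3, of several ADAM and ADAMTS proteases. ADAMTS proteases carry thrombospondin repeats that hold them in the matrix, where some cleave large proteoglycans such as versican and others remove the N-terminal propeptide of procollagens.

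The 10 MMP genes of a cluster lie side by side on mouse chromosome 9 in the order Mmp13, Mmp12, Mmp1b, Mmp3, Mmp1a, Mmp10, Mmp8, Mmp27, Mmp20 and Mmp7, with 3 other annotated genes and 0 other protein-coding genes among them. Promoter windows of 300 bases, from 250 before to 50 after an annotated start, were at hand for 32 of the 46 member genes (35 windows; RefSeq, build GRCm38.p6). The windows were searched for the AP-1 motif, spelled TGACTCA or TGAGTCA, each of which is the other's reverse complement, so that both strands were covered and the spellings do not overlap. The motif was present in the windows of 7 of the 32 member genes, all 7 of them in this cluster, and in 0 of the 22 other members with a window. Of all 32851 promoter windows of the same length, 5.2% held it. The 7 matches are shown because genes of this cluster went opposite ways between sorted and unsorted cells. Each sequence is the 120 bases that end just before the annotated start, 5′ to 3′ on the gene's strand, with the motif in capitals.
Mmp13 (chr9:7272394-7272513, plus strand): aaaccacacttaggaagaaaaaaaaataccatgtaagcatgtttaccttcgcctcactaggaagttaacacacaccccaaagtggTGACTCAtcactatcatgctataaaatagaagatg
Mmp12 (chr9:7347254-7347373, plus strand): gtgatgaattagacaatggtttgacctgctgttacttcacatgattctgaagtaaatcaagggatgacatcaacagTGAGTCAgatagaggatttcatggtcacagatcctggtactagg
Mmp1b (chr9:7388027-7388146, minus strand): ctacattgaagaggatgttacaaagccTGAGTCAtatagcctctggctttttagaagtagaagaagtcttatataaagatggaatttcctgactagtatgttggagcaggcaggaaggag
Mmp3 (chr9:7445702-7445821, plus strand): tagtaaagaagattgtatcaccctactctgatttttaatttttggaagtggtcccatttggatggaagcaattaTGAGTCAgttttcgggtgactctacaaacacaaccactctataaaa
Mmp1a (chr9:7464021-7464140, plus strand): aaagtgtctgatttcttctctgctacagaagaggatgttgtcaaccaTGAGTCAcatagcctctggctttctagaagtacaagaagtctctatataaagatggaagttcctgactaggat
Mmp10 (chr9:7502222-7502341, plus strand): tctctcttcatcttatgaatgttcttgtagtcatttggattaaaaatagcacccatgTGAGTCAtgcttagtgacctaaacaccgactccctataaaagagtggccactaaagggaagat
Mmp7 (chr9:7691970-7692089, plus strand): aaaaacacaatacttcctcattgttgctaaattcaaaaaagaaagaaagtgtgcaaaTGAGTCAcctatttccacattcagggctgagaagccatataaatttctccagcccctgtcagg
The motif began 35 bases before the start in Mmp13, 44 in Mmp12, 46 in Mmp3, 63 in both Mmp10 and Mmp7, 73 in Mmp1a and 93 in Mmp1b. The windows of Mmp8, Mmp27 and Mmp20 did not hold these letters, and Mmp12 and Mmp7 each had 2 windows, of which 1 held them. A match is a description of the sequence and is neither a bound site nor a cause.

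Values are log2 of the processed signal minus the array's 75th percentile, here called the scaled log2 level, so that 0 is the 75th percentile of all probes on that array. Levels of different genes are not compared, because each comes from its own probe. Differences between groups were tested with limma across all 17253 genes, and a call is an adjusted p (Benjamini-Hochberg, over all these genes) under 0.05. The errors given with differences are standard errors (SE) of that fit, and each group mean has n = 2. The Pu arrays had been hybridised on slide 1 and the 6 fibroblast arrays on slide 2, each slide with its own scan, so slide, scan and sorting cannot be told apart in any comparison with Pu, whereas the comparisons between fibroblast types lie within slide 2.

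The 75th percentile signal ranged from 110.17 to 250.03 and the share of probes well above background from 54.1% to 68.2% across arrays. Replicates correlated at 0.915 in Pu, 0.985 in A, 0.985 in B and 0.947 in C over the genes tested, and 31.4%, 5.15%, 5.44% and 20.8% of genes differed at least 2-fold within the pair. All 7 fibroblast markers were higher in each type than in Pu, and 8 of 8 macrophage and dendritic, 8 of 8 epithelial and 5 or 6 of 6 endothelial markers were lower. Of 5 smooth muscle markers 2 or 3 were lower, and of 6 pericyte markers 2 to 4 were lower and 1 was higher. Of 8 dissociation and immediate early genes, 5, 5 and 6 were higher in A, B and C, and the log2 of their summed scaled signal was 7.90 to 8.18 in Pu and 9.69 to 9.86 on the fibroblast arrays. The choice of scaling moved the whole distribution: scaling by the median raised the median difference from Pu over all genes by 0.33 to 0.40, and taking the percentile over the probes detected on all 8 arrays lowered it by 0.29 to 0.32. With these, the share of higher genes among all calls against Pu went from between 52.1% and 56.1% to between 68.6% and 71.8%, or to between 36.2% and 41.8%.

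Against the unsorted lung cells, most of the MMP, TIMP and ADAMTS genes changed, and more rose than fell. In A-type fibroblasts 23 of the 37 tested members were called, 18 higher and 5 lower, where 27.1% of all genes were called (15.2% higher and 11.9% lower). In B-type fibroblasts the numbers were 25, 19 and 6, against 29.5% of all genes (16.5% higher and 13% lower). In C-type fibroblasts they were 22, 18 and 4, against 28.9% (15% higher and 13.8% lower). The median difference of the members was 2.19, 1.87 and 2.16 on the log2 scale in A, B and C, beside 0.12, 0.12 and 0.06 over all genes tested. Scaled by the median the counts of higher and lower members were 24 and 5, 22 and 6, and 22 and 4. With the percentile over the probes detected on all 8 arrays they were 17 and 6, 18 and 7, and 17 and 5. The members are named in full because they passed a filter on dim signal, which a gene can pass through the group in which it is high.

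The 14 members called higher than Pu in all 3 types were Timp1, Timp2, Timp3, Mmp2, Mmp3, Mmp11, Mmp14, Mmp23, Mmp27, Adamts1, Adamts2, Adamts4, Adamts8 and Adamts15. The 4 called lower in all 3 were Mmp8, Mmp9, Mmp12 and Mmp15. Of these, Mmp9, Mmp12 and Mmp15 passed the filter on dim signal through Pu alone, and Mmp8 through Pu and C. Mmp25, called lower in A and B, also passed through Pu alone. Among the 14 higher members, Timp1 and Mmp27 passed it through fibroblast groups alone. For such genes the filter in part sets the direction of a call. The 3 comparisons share the Pu arrays, so agreement among them is not independent. The share of all genes called in all 3 types was not counted, so the 14 and the 4 have no such share beside them. For the mean of the 3 types minus Pu, 27 members were called, 22 higher and 5 lower, beside 37.1% of all genes (20.8% higher and 16.3% lower). In these bulk samples, fewer cells of a type and less RNA per cell cannot be told apart.

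**Figure D1:**
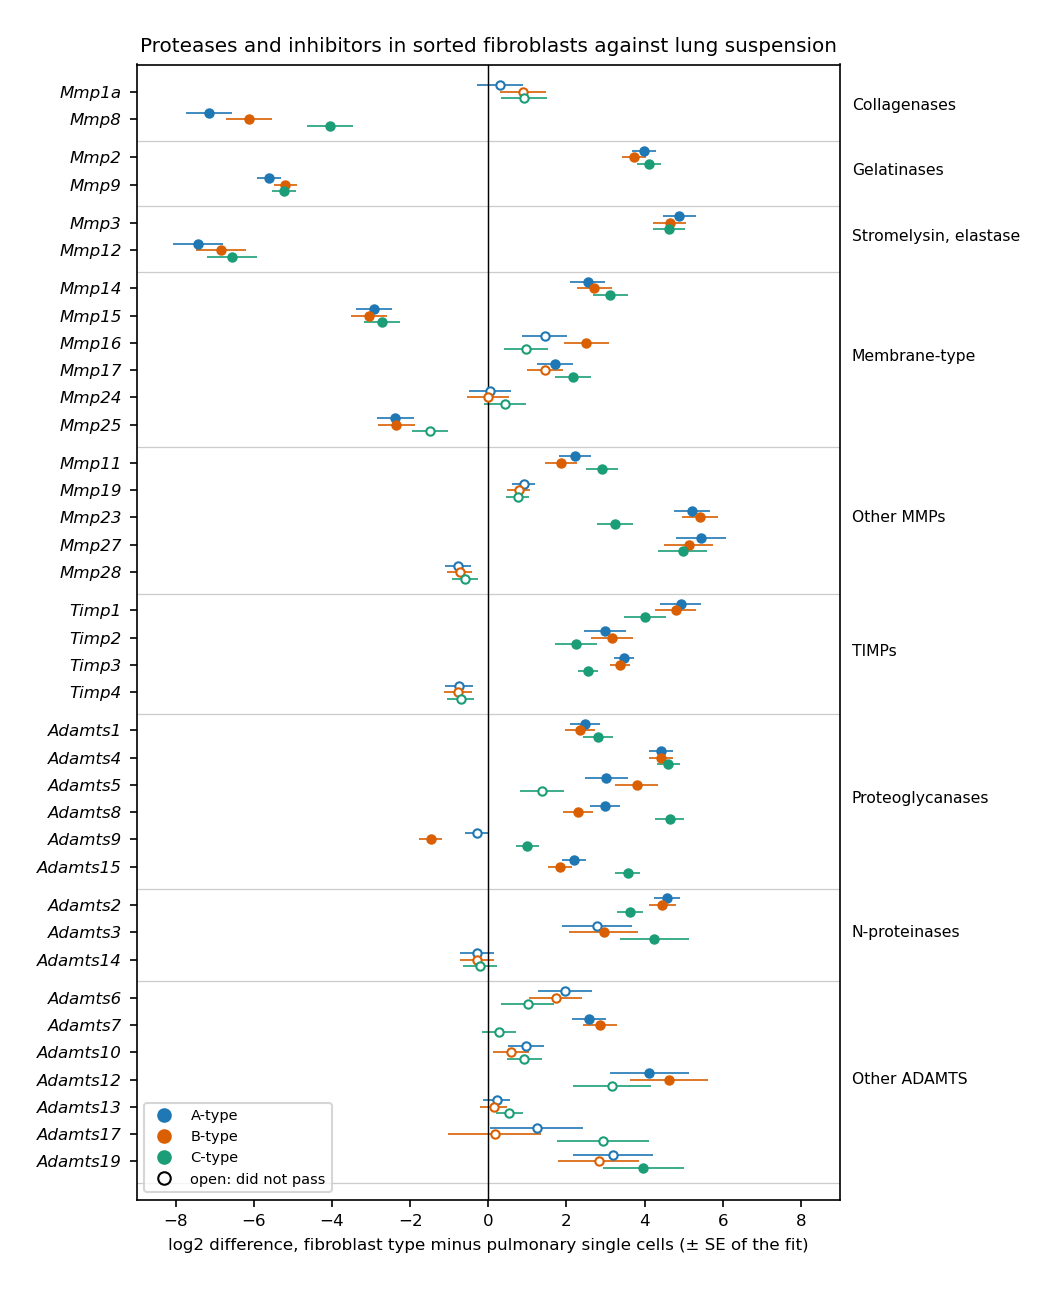
Log2 difference of each fibroblast type from Pu for the 37 tested members, grouped by role, with A, B and C as separate points, bars showing the standard error of the fit and filled points marking an adjusted p under 0.05. Timp1, Timp2 and Timp3, Mmp2, Mmp3, Mmp14 and the proteoglycanases other than Adamts9 lie to the right of 0 in all 3 types, and Mmp8, Mmp9, Mmp12 and Mmp15 lie to the left.

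Among the inhibitors, 3 of the 4 TIMPs rose in every fibroblast type and Timp4 did not pass the test. Timp3, the TIMP that stays bound to the matrix, had scaled log2 levels of 2.61 and 2.80 in Pu, 6.12 and 6.24 in A, 6.12 and 6.03 in B and 5.32 and 5.18 in C. All 6 fibroblast arrays lay above both Pu arrays, and the C arrays were the lowest of the 6. The difference from Pu was 3.48 (SE 0.26, adjusted p = 0.000196, 11.1-fold) in A, 3.37 (adjusted p = 0.000207) in B and 2.55 (adjusted p = 0.000685) in C by limma.

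Timp2, which with membrane-bound MMP14 takes part in the activation of pro-MMP2, had levels of 3.03 and 4.76 in Pu, 6.78 and 6.98 in A, 7.10 and 7.01 in B and 6.03 and 6.25 in C. The groups did not overlap, although the Pu arrays stood further apart than the fibroblast arrays of any type. It was higher than in Pu by 2.99 (SE 0.53, limma adjusted p = 0.00649) in A, 3.16 (adjusted p = 0.00494) in B and 2.24 (adjusted p = 0.0199) in C. The Pu replicate left out decided the size: without Pu1 the differences were 2.12, 2.29 and 1.38, and without Pu2 3.85, 4.03 and 3.11. The limma call in C was lost without C1 (adjusted p = 0.0544), without C2 (0.0768) and with only the arrays compared (0.0852), and that in A without A2 (0.0511). A second Timp2 probe gave differences of 2.55, 2.93 and 2.10, and all 3 passed.

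Timp1, a soluble inhibitor of most secreted MMPs, was not well above background on Pu1. Its levels were -3.83 and -2.22 in Pu, 1.69 and 2.10 in A, 2.03 and 1.52 in B and 0.89 and 1.07 in C. The 6 fibroblast arrays were close together and far from both Pu arrays. The differences from Pu were 4.92 (SE 0.53), 4.80 and 4.01, with limma adjusted p-values of 0.000762, 0.00084 and 0.00191. Without Pu1 they were 4.11, 3.99 and 3.20, without Pu2 5.73, 5.60 and 4.81, and with normexp background correction 2.93, 2.79 and 2.08. Timp4, the TIMP best known from heart and vessels, was at 0.32 and -0.27 in Pu, -0.89 and -0.56 in A, -0.59 and -0.89 in B and -0.40 and -0.96 in C. It was lower in every fibroblast group without passing the test, with a difference of -0.75 in A (SE 0.35, limma adjusted p = 0.16).

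**Figure D2:**
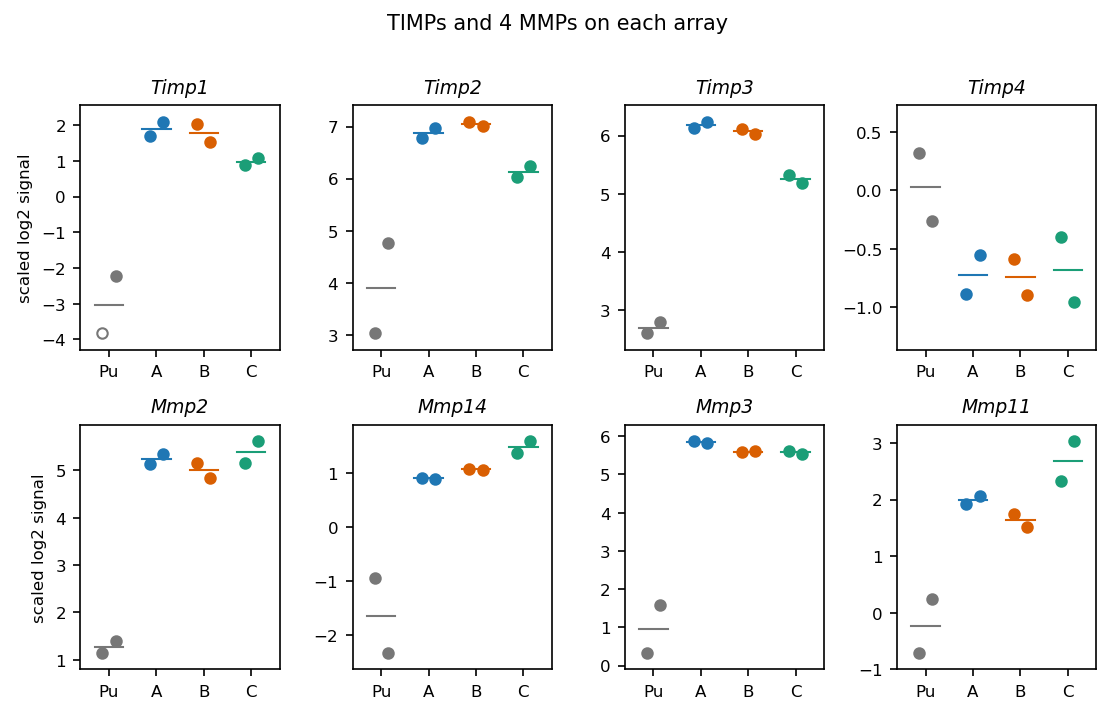
Scaled log2 level (log2 processed signal minus the array's 75th percentile) of the 4 TIMPs and of Mmp2, Mmp14, Mmp3 and Mmp11 on each array, by group, with filled points well above background, open points not, and a bar at the group mean of 2 arrays; each panel has its own vertical axis. Timp1, Timp2, Timp3 and the 4 MMPs are higher on all 6 fibroblast arrays than on both Pu arrays, while Timp4 lies lower on the fibroblast arrays.

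Of the gelatinases, Mmp2 rose and Mmp9 fell in all 3 types. Mmp2 encodes gelatinase A, which digests denatured collagen and basement membrane collagen. Its levels were 1.14 and 1.40 in Pu, 5.14 and 5.36 in A, 5.16 and 4.85 in B and 5.17 and 5.62 in C. Every fibroblast array was far above both Pu arrays. The A arrays overlapped in range with both other types, while both B arrays were below both C arrays. The difference from Pu was 3.98 (SE 0.30, limma adjusted p = 0.0002) in A, 3.73 in B and 4.12 in C, that is 15.7-fold, 13.3-fold and 17.4-fold.

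Mmp14 encodes the membrane-type protease MT1-MMP, which cleaves fibrillar collagen at the cell surface and activates pro-MMP2. Its levels were -0.95 and -2.33 in Pu, 0.92 and 0.89 in A, 1.08 and 1.05 in B and 1.38 and 1.59 in C. Again the fibroblast arrays lay together above both Pu arrays, which differed from each other by more than the fibroblast groups did. The differences were 2.54, 2.71 and 3.13 (SE 0.45; limma adjusted p = 0.00631, 0.00471 and 0.00269). They were 3.24, 3.40 and 3.82 without Pu1, 1.85, 2.02 and 2.43 without Pu2, and 1.74, 1.88 and 2.16 with normexp, and passed each time.

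Among the stromelysins, matrilysin and macrophage elastase, Mmp3 rose, Mmp12 fell, and Mmp10 and Mmp7 were well above background on no array. Mmp3 encodes stromelysin-1, a protease of broad specificity that also activates other pro-MMPs. Its levels were 0.33 and 1.58 in Pu, 5.87 and 5.82 in A, 5.58 and 5.62 in B and 5.62 and 5.54 in C. The 6 fibroblast arrays fell within a narrow band above both Pu arrays. The difference from Pu was 4.89 (SE 0.42, limma adjusted p = 0.000308, 29.6-fold) in A, 4.64 (25-fold) in B and 4.63 (24.7-fold) in C. Without Pu1 it was 4.26, 4.02 and 4.0, and without Pu2 5.51, 5.27 and 5.25. Of the Fos and Jun family genes, which encode AP-1 subunits, in the immediate early list, Fos, Fosb and Jun were called higher in each type and Junb in C alone, its difference from Pu being 0.43 in A and 0.12 in B (limma adjusted p = 0.408 and 0.826). Fos was at 4.69 and 5.07 in Pu, 6.20 and 6.47 in A, 6.17 and 6.33 in B and 6.33 and 6.06 in C. The Fos differences from Pu were 1.46, 1.37 and 1.31 (limma adjusted p = 0.0108, 0.0134 and 0.0159), and those of Fosb were 1.99, 1.63 and 1.86 (0.00391, 0.00864 and 0.00536). The part of these immediate early genes in the Mmp3 result was not tested.

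Within the chromosome 9 cluster, genes went opposite ways. Mmp3 and, on its brighter probe, Mmp27 rose in all 3 types, and Mmp8 and Mmp12 fell in all 3. Of these, only Mmp8 and Mmp27 lie next to each other, and a second Mmp27 probe, given below, was not called in any type. Mmp13, Mmp1b, Mmp10, Mmp20 and Mmp7 were well above background on 0 of 8 arrays. Mmp1a was well above background on B1, B2 and C2 only, at -3.41, -3.50 and -2.93, and was not called in any comparison. Mmp1a and Mmp1b are close paralogs, so that a probe for either may also take up the other. Of the genes whose promoter windows held the AP-1 motif, Mmp3 was higher than in Pu, Mmp12 was lower, Mmp1a was not called, and Mmp13, Mmp1b, Mmp10 and Mmp7 were not measured above background.

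**Figure D3:**
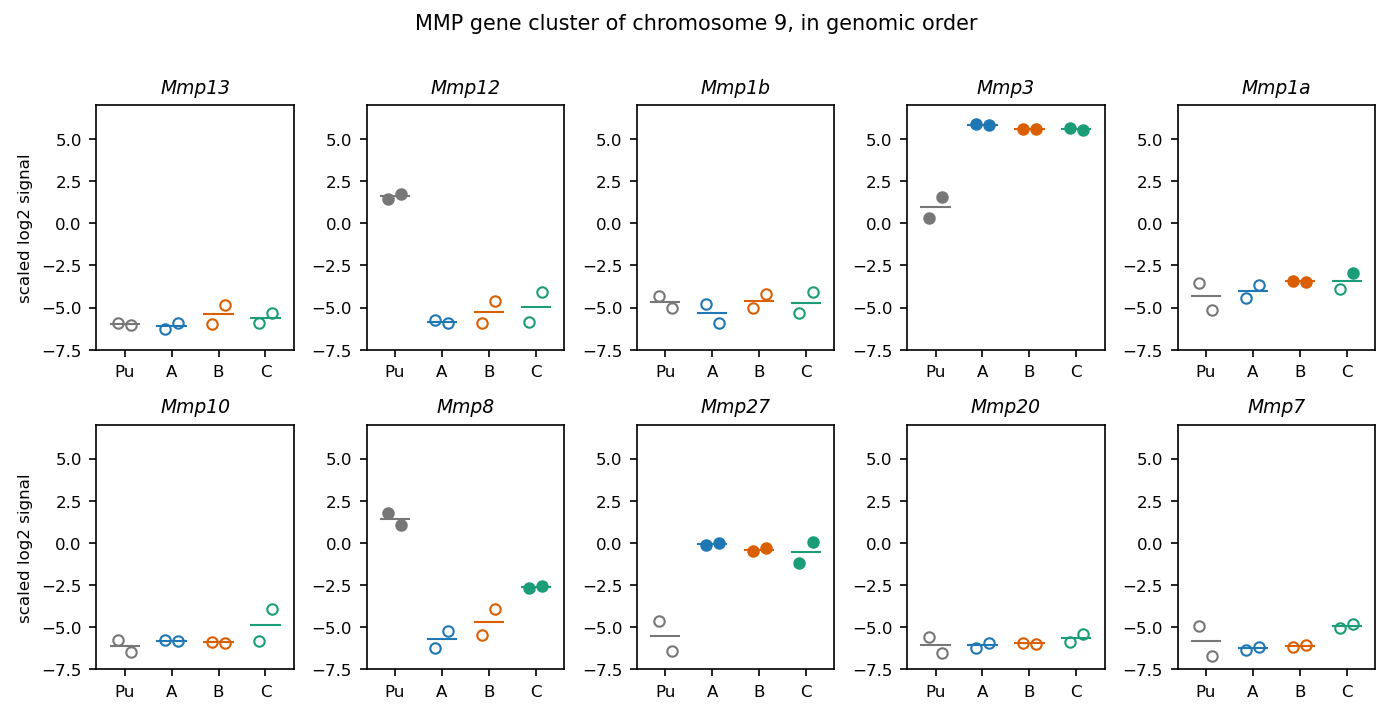
Scaled log2 level of the 10 MMP genes of the chromosome 9 cluster on each array, in genomic order and on a common vertical axis, with filled points well above background, open points not, and a bar at the group mean of 2 arrays. Mmp3 and Mmp27 are high on the fibroblast arrays, Mmp12 and Mmp8 on the Pu arrays, and Mmp13, Mmp1b, Mmp10, Mmp20 and Mmp7 have open points only. Mmp27 is shown on its brighter probe, and its second probe did not show this rise.

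Mmp27, a poorly studied member of the cluster, rested on its brighter probe. On it, the Pu arrays were not well above background (-4.64 and -6.40), and the fibroblast arrays were at -0.14 and -0.01 in A, -0.48 and -0.31 in B and -1.17 and 0.08 in C. Where a group was not well above background on any of its arrays, a fold is given as a lower bound, the bright group's mean over, on each array of the dim group, the higher of the lowest signal among probes above background and the probe's own signal. Against that bound, Mmp27 was at least 16.4-fold, 13.1-fold and 11.8-fold higher in A, B and C (limma adjusted p = 0.00105, 0.00135 and 0.00162). Here and below, a p-value beside a bound tests the fitted difference, which uses the dim group's own signal, and not the bound. The second Mmp27 probe gave a different result, with differences from Pu of -0.54, -0.11 and 0.12 (limma adjusted p = 0.568, 0.913 and 0.913). Over the mean of both probes the fitted differences were 2.45, 2.51 and 2.55, where the brighter probe alone gave 5.45, 5.13 and 4.97. They were 6.33, 6.01 and 5.85 without Pu1, and 4.57, 4.25 and 4.09 without Pu2, and 1.72, 1.52 and 1.43 with normexp. In C, the difference was 5.60 without C1 and 4.35 without C2.

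The 4 MMP genes that leukocytes are best known to make, Mmp8, Mmp9, Mmp12 and Mmp25, were higher in the unsorted cells than in the fibroblasts, where Mmp8 in C was the one case of a group well above background. Mmp12 encodes macrophage elastase. Its levels were 1.45 and 1.75 in Pu, -5.76 and -5.91 in A, -5.89 and -4.60 in B and -5.85 and -4.07 in C, and none of the 6 fibroblast arrays was well above background. Pu was at least 49.3-fold, 56.5-fold and 37.2-fold higher than A, B and C (limma adjusted p = 0.000315, 0.00042 and 0.000546). A second Mmp12 probe was well above background on 0 of 8 arrays, Pu included, so that the result rests on 1 probe. Mmp9 encodes gelatinase B, which neutrophils store in granules. It was at -0.34 and -0.48 in Pu, -6.04 and -5.99 in A, -5.82 and -5.38 in B and -5.85 and -5.43 in C, again with none of the 6 fibroblast arrays well above background. The bound was at least 12.3-fold, 14-fold and 9.25-fold higher in Pu (limma adjusted p = 7.55e-05, 8.93e-05 and 0.000108).

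Mmp8, the neutrophil collagenase, was at 1.77 and 1.06 in Pu, -6.22 and -5.21 in A, -5.49 and -3.92 in B and -2.68 and -2.57 in C. It was well above background on both Pu and both C arrays and on 0 of the 4 A and B arrays. Pu was at least 43.4-fold higher than A and at least 39.5-fold higher than B (limma adjusted p = 0.000268 and 0.000465), and 16.5-fold higher than C (adjusted p = 0.00285, or 0.0901 with array weights). Between types, C was at least 2.64-fold higher than A (limma adjusted p = 0.084) and at least 2.4-fold higher than B (adjusted p = 0.144), and neither passed. Mmp25 encodes leukolysin, a membrane-anchored MMP of neutrophils. It was at -2.60 and -3.50 in Pu and not well above background on any fibroblast array. It was called lower in A and B, with fitted differences of -2.38 and -2.36 (limma adjusted p = 0.0102 and 0.0102), but not in C (adjusted p = 0.0534). By the bound it was at least 1.97-fold and 2.25-fold lower in A and B. Being below background in all 3 types, it stayed among the members counted between types, but its differences there are not read. The Mmp25 calls were lost with normexp (-0.27 in A and -0.31 in B; adjusted p = 0.477 and 0.4) and with array weights (0.0757 and 0.0715). They were lost too without A2 (0.0852) and without B2 (0.0773). With normexp, which adds an offset of 50 to every signal, the fall of Mmp12 was 2.78 to 3.14, that of Mmp8 was 2.31 to 2.92 and that of Mmp9 was 1.34 to 1.73 on the log2 scale, and these calls were kept. Single arrays moved the fitted fall of Mmp12 and Mmp8 without ending a call. For Mmp12 it was -6.20 without B1, -7.49 without B2, -5.67 without C1 and -7.45 without C2, and for Mmp8 -5.33 without B1 and -6.90 without B2.

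Macrophage and dendritic markers fell with these genes, and neutrophil markers did so in part. All 8 macrophage and dendritic markers were well above background on both Pu arrays, and 2 to 6 of the 8 on the fibroblast arrays. The log2 of their summed scaled signal was 9.03 and 9.33 in Pu and 0.25 to 1.09 on the fibroblast arrays, and Mrc1 and H2-Aa were not well above background on any of these 6. Of 8 neutrophil markers, 7 and 8 were well above background on the Pu arrays and 1 to 5 on the fibroblast arrays, and 4, 4 and 5 were called lower in A, B and C. Their summed level hardly moved (7.54 and 7.99 in Pu, 7.11 to 7.45 on the fibroblast arrays), the sum being carried by the Csf3r probe, which read between 7.08 and 7.64 on every array. Their median level was 2.68 and 1.91 in Pu and between -5.79 and -3.08 on the fibroblast arrays. S100a8, a granule protein of neutrophils, was at 3.16 and 2.93 in Pu and was well above background on 1 fibroblast array, C1, at -2.68. Retnlg was well above background on none of the 6, and Ly6g was at 1.42 and 1.62 in A, 2.30 and 2.04 in B and -2.10 and -3.19 in C, beside 1.57 and 0.43 in Pu. The part of leukocytes in the Mmp8, Mmp9, Mmp12 and Mmp25 results was not tested.

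**Figure D4:**
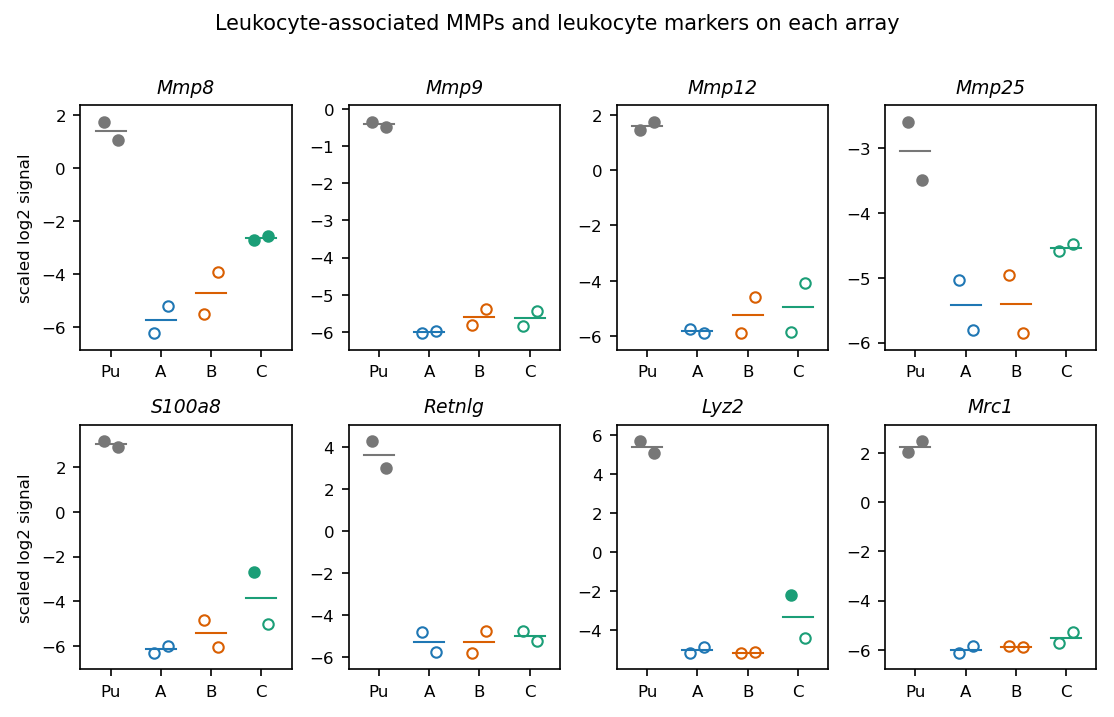
Scaled log2 level of Mmp8, Mmp9, Mmp12 and Mmp25 (upper row) and of the leukocyte markers S100a8, Retnlg, Lyz2 and Mrc1 (lower row) on each array, with filled points well above background, open points not, and a bar at the group mean of 2 arrays; each panel has its own vertical axis. All 8 genes are higher on both Pu arrays than on the fibroblast arrays, Mmp8 alone has filled points on both C arrays, and S100a8 and Lyz2 have a filled point on C1. Neutrophil markers whose mean was not lower than Pu in every type, such as Csf3r and Ly6g, are not shown.

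Of the 6 membrane-type MMPs, Mmp14 rose and Mmp15 fell in all 3 types. Mmp15, which encodes MT2-MMP, was at -3.54 and -2.50 in Pu, -6.38 and -5.51 in A, -6.04 and -6.12 in B and -5.99 and -5.51 in C, none of these 6 well above background. The fitted differences from Pu were -2.92, -3.06 and -2.73 (limma adjusted p = 0.00387, 0.00311 and 0.00524). By the bound, Pu was at least 2-fold, 2.3-fold and 1.51-fold higher. Its calls were lost with normexp (-0.61, -0.57 and -0.33; adjusted p = 0.0551, 0.0664 and 0.282), and the call in C with array weights (0.0504). The epithelial markers fell too, with 8 of 8 called lower in each type. So did 8 of 8 macrophage and dendritic, 5 or 6 of 6 endothelial, 4 or 5 of 5 mesothelial and 5 of 6 T, NK and B cell markers. The part of any of these cells in the Mmp15 result was not tested.

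Mmp17, which encodes the lipid-anchored MT4-MMP, was at -0.82 and 0.29 in Pu, 1.28 and 1.62 in A, 1.23 and 1.15 in B and 2.32 and 1.48 in C. It was called higher in A and C (1.71 and 2.16; limma adjusted p = 0.0317 and 0.0132) and just missed the threshold in B (1.46, adjusted p = 0.0516). The call in A was lost under 9 settings, among them without Pu1 (1.15, adjusted p = 0.0943), A1 (0.103), A2 (0.177), B1 or B2 (0.0636 each), and that in C without C1 (0.0555) and with only the arrays compared (0.0699). Mmp16 (MT3-MMP) was well above background on B1 and B2 alone, at -2.96 and -2.71, and was called higher in B than in Pu. The fitted difference was 2.51 (limma adjusted p = 0.0168), and the bound was at least 2.43-fold. That call was lost with normexp (0.47, adjusted p = 0.216), with only the arrays compared (0.0607) and without B1 or B2 (0.0747 and 0.0941). Without Pu1 or Pu2 the difference was 3.45 or 1.57. Mmp24 (MT5-MMP) was well above background in all groups and was not called, with differences from Pu of 0.05, -0.02 and 0.42.

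Of the remaining MMPs, Mmp11 and Mmp23 rose in all 3 types. Mmp11 encodes stromelysin-3, which is activated by furin inside the cell. Its levels were -0.71 and 0.24 in Pu, 1.91 and 2.07 in A, 1.75 and 1.52 in B and 2.33 and 3.03 in C, with no overlap between fibroblast and Pu arrays. The differences were 2.23, 1.87 and 2.92 (SE 0.41; limma adjusted p = 0.00727, 0.0144 and 0.00242), and a second probe gave 2.67, 2.02 and 2.94, all called. With normexp the difference in C was 2.32. With the array named left out, the limma call was lost in A without A2 (adjusted p = 0.06) and in B without B1 (0.098) or B2 (0.0671).

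Mmp23 encodes an MMP that is anchored in the membrane by its propeptide. Its levels were -3.29 and -2.14 in Pu, 2.45 and 2.55 in A, 2.84 and 2.55 in B and 0.95 and 0.10 in C. All 6 fibroblast arrays were above Pu, and both C arrays were below the 4 A and B arrays. It was 37.1-fold, 42.6-fold and 9.43-fold higher than in Pu (limma adjusted p = 0.000342, 0.000295 and 0.00262). These are log2 differences of 5.21, 5.41 and 3.24, which were 3.46, 3.63 and 1.69 with normexp. Mmp19 was called only for the mean of the 3 types minus Pu (0.82, limma adjusted p = 0.0357), a call lost under 10 settings. Mmp28 (epilysin), at differences of -0.77, -0.73 and -0.59, was not called.

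The ADAMTS proteoglycanases, which cut versican and aggrecan, formed the group with the most calls: 5 of the 6 tested members were higher than Pu in each type (Adamts1, Adamts4, Adamts8 and Adamts15 in all 3, with Adamts5 in A and B and Adamts9 in C), and Adamts20 was well above background on no array. Of all genes tested, 15.2%, 16.5% and 15% were called higher in A, B and C. Adamts4 had levels of -0.95 and -0.40 in Pu, 3.70 and 3.79 in A, 3.65 and 3.84 in B and 3.91 and 3.96 in C. The 6 fibroblast arrays spanned a narrow range far above both Pu arrays. The difference from Pu was 4.42 (SE 0.30, limma adjusted p = 0.000142, 21.4-fold) in A, 4.42 in B and 4.61 in C. A second probe gave 4.03, 4.12 and 4.28. With normexp the first probe gave 3.74, 3.73 and 3.79. Adamts1, a versicanase of many stromal tissues, had levels of 2.23 and 3.21 in Pu, 5.38 and 5.01 in A, 4.97 and 5.18 in B and 5.51 and 5.54 in C. Its groups too stood clear of Pu, by 2.48, 2.35 and 2.81 (SE 0.38; limma adjusted p = 0.00352, 0.00426 and 0.00217). Of the 8 immediate early genes, 5 or 6 were higher in the same groups, and their part in these results was not tested.

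Adamts8 and Adamts15 are neighbours in the genome, with 0 annotated genes between them. Adamts15 was at 0.55 and 0.26 in Pu, 2.71 and 2.49 in A, 2.26 and 2.25 in B and 3.69 and 4.25 in C, so that the C arrays were the highest and the Pu arrays the lowest. The differences from Pu were 2.19, 1.85 and 3.56 (SE 0.31; limma adjusted p = 0.00241, 0.00474 and 0.000354). Adamts8 was at 0.14 and 1.15 in Pu, 3.60 and 3.67 in A, 3.0 and 2.87 in B and 5.14 and 5.43 in C on its brighter probe. The order of the groups was the same, with differences from Pu of 2.99, 2.29 and 4.64 (SE 0.38; limma adjusted p = 0.00158, 0.00467 and 0.000294). A second Adamts8 probe, well above background on all arrays, read -0.24 and -1.22 in Pu, -0.58 and -1.21 in A, -1.65 and -1.07 in B, and 0.61 and 1.05 in C. It put C highest as well but gave differences from Pu of -0.16, -0.63 and 1.56, none of which passed (limma adjusted p = 0.83, 0.364 and 0.0509). The rise of Adamts8 over Pu therefore depends on the probe, and over the mean of both probes it was 1.41, 0.83 and 3.10, the second not called (adjusted p = 0.0599).

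Adamts5, an aggrecanase that lies next to Adamts1 with 1 non-coding gene between them, was called higher in A and B and not in C. Its levels were -1.29 and -2.64 in Pu, 1.04 and 1.09 in A, 1.81 and 1.85 in B and 0.06 and -1.23 in C. The differences from Pu were 3.02 (SE 0.56, limma adjusted p = 0.00747), 3.79 (0.00284) and 1.37 (0.109). In A and B they were 3.70 and 4.47 without Pu1, 2.35 and 3.12 without Pu2, and 2.10 and 2.79 with normexp, and the call in A was lost without A2 (adjusted p = 0.0529). A second probe gave 3.26, 4.16 and 1.27, with the same calls.

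Adamts9, which with ADAMTS20 belongs to the longest members of the family, was the one member called on both sides of Pu. Its levels were 1.05 and 0.48 in Pu, 0.51 and 0.41 in A, -0.66 and -0.75 in B and 1.76 and 1.76 in C. The A and Pu arrays overlapped in range, both B arrays were below them and both C arrays above. It was lower than in Pu by 1.47 in B (SE 0.30, limma adjusted p = 0.0105) and higher by 1.00 in C (adjusted p = 0.0434), while A minus Pu was -0.30 (adjusted p = 0.484) and turned to 0.03 with scaling by the median. The rise in C was lost under 14 settings, among them quantile scaling, where the limma adjusted p was 0.087, and each array of A, B or C left out (0.0939 to 0.105). The fall in B was lost without B1 (0.0718) or B2 (0.082).

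Of the 3 procollagen N-proteinases, which trim the N-terminal propeptide from fibrillar procollagens, Adamts2 rose in all 3 types. It was at -0.05 and 0.69 in Pu, 4.79 and 4.99 in A, 4.91 and 4.63 in B and 4.08 and 3.81 in C. All fibroblast arrays were far above Pu, and the C arrays were the lowest of them. The differences were 4.57, 4.45 and 3.63 (SE 0.34; limma adjusted p = 0.000194, 0.000196 and 0.000474), or 23.8-fold, 21.9-fold and 12.4-fold, and a second probe gave 4.50, 4.21 and 3.77. Adamts3 was not well above background in Pu and was called higher in B and C, by at least 4.01-fold and 9.89-fold (limma adjusted p = 0.0449 and 0.0125). In A its adjusted p was 0.0574. Its fitted differences in B and C were 2.95 and 4.25, 4.40 and 5.70 without Pu1, and 1.50 and 2.81 without Pu2, where the call in B was lost (adjusted p = 0.0869). With normexp they were 0.77 and 1.45. The call was lost in B under 14 settings in all, each array of A, B or C left out among them (0.0586 to 0.215), and in C without C2 (0.0622). Adamts14 was not called on its brighter probe (-0.29, -0.29 and -0.22), while a second probe, well above background on both Pu arrays and on 0 of the 4 B and C arrays, was called lower in B and C (limma adjusted p = 0.0451 and 0.00863).

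Among the remaining ADAMTS genes, Adamts12 and Adamts7, both proteases of cartilage oligomeric matrix protein, were called higher in A and B. Adamts12 was at -5.51 and -1.99 in Pu, 0.31 and 0.44 in A, 0.72 and 1.01 in B and -0.17 and -1.01 in C, and Pu1 was not well above background. The differences in A and B were 4.13 and 4.62 (SE 1.00; limma adjusted p = 0.0225 and 0.014), and that in C was 3.16 (adjusted p = 0.0536). They turned on the Pu replicate, being 2.36 and 2.85 without Pu1 and 5.89 and 6.38 without Pu2, and were 1.62 and 1.99 with normexp. Both calls were lost with only the arrays compared (0.0621 and 0.0516) and when an array of A (0.0933 and 0.112) or of B (0.0651 and 0.0755) was left out of its own comparison.

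Adamts7, at -5.95 and -5.99 in Pu, was well above background on A2, B1 and B2 only. It was called at least 1.64-fold higher in A and 2.01-fold in B (limma adjusted p = 0.00544 and 0.00334), and both calls were lost with normexp (0.33 and 0.44; adjusted p = 0.34 and 0.192), that in A also with array weights (0.061). In A the fitted difference of 2.57 was 3.19 without A1 and 1.95 without A2. Adamts19 was called higher in C alone, at least 4.15-fold (limma adjusted p = 0.028), with levels of -3.92 on C1, which was not well above background, and -0.19 on C2, beside -5.93 and -6.12 in Pu, -2.80 and -2.87 in A and -2.93 and -3.47 in B. Its fitted difference was 3.97, 2.10 without C2 and 5.83 without C1, and the call was lost under 7 settings, among them without Pu1 (adjusted p = 0.0834), without Pu2 (0.0874), without A1 or A2 (0.0524 each) and with normexp (1.16, 0.0719). Adamts6, Adamts10, Adamts13 (the protease of von Willebrand factor) and Adamts17 were not called. A second Adamts17 probe was called higher in A and C (2.98 and 3.85; limma adjusted p = 0.0207 and 0.00742).

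The remaining 9 members had no probe that was well above background on both arrays of a group and were not tested. Mmp7, Mmp10, Mmp13, Mmp1b, Mmp20, Mmp21 and Adamts20 were well above background on 0 of 8 arrays, and Adamts16 and Adamts18 on 1 array at most. For these genes no level below background can be ranked. Further probes of the tested genes Mmp12, Mmp28, Adamts3, Adamts9, Adamts12 and Adamts13 did not pass that filter either and were not tested.

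Between the fibroblast types, differences were smaller and few passed. For A minus B, 0 of 37 members were called with limma, beside 0% of all genes, and 1 had an unadjusted p under 0.05. For A minus C, 0 were called, beside 0.412% of all genes, and 9 had an unadjusted p under 0.05. For B minus C, 4 were called, 1 higher and 3 lower, beside 2.44% of all genes (1.26% higher and 1.18% lower), and 11 had an unadjusted p under 0.05. Group means were at least 2-fold apart in 4, 9 and 13 of the 37 members for A minus B, A minus C and B minus C, beside 4.85%, 15.8% and 17.5% of all genes. The 37 include Mmp9, Mmp12, Mmp15 and Mmp25, which were not well above background in any type. The 4 for A minus B include Mmp8 (-1.01), which was not well above background on any A or B array. Among the markers, 1 of 8 epithelial was called lower in B than in C, and 1 of 7 fibroblast, 1 of 6 endothelial and 1 of 8 neutrophil were called higher. The log2 of the summed scaled epithelial signal was 1.69 and 1.95 in A, 2.48 and 1.00 in B and 4.10 and 2.99 in C. The part of other cells in the differences between types was not tested. In simulated data of this size for A minus B, 0 of 67 genes changed by 1 on the log2 scale were called, 24 of 67 changed by 2 and 52 of 66 changed by 4, so that a fit of this size missed most differences of 4-fold.

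The 3 members lower in B than in C were all proteoglycanases, of which 6 were tested. The others were not called: Adamts5 differed the other way, by 2.42, Adamts1 by -0.45 and Adamts4 by -0.19. Adamts9, whose levels are given above, differed by -2.46 (SE 0.30, limma adjusted p = 0.0098, 5.52-fold). Adamts8 differed by -2.35 (SE 0.38, adjusted p = 0.0277, 5.1-fold) and its second probe by -2.19 (adjusted p = 0.0833). Adamts15 differed by -1.71 (SE 0.31, limma adjusted p = 0.0389, 3.28-fold). In Adamts8, Adamts9 and Adamts15, both C arrays were above both A arrays, and both A arrays above both B arrays. These genes were picked by their B minus C calls. Groups did not overlap in 21, 26 and 27 of the 37 members for A minus B, A minus C and B minus C. The 1 member higher in B, Adamts7, was at -4.02 and -2.78 in A, -3.24 and -2.97 in B and -5.94 and -5.46 in C, with both C arrays not well above background. Its fitted B minus C difference was 2.60 (limma adjusted p = 0.0325), which uses the C values below background. By the bound it was at least 1.43-fold higher in B.

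None of these calls held with either B array left out, although the fitted differences moved little. Without B1 and without B2 they were -2.51 and -2.42 for Adamts9 and -2.42 and -2.28 for Adamts8. For Adamts15 they were -1.72 and -1.71, and for Adamts7 2.73 and 2.46. Without B1 the limma adjusted p-values of Adamts9, Adamts8, Adamts15 and Adamts7 were 0.111, 0.196, 0.28 and 0.194, and without B2 0.119, 0.217, 0.268 and 0.234, so that 0 of 37 were called either time. Adamts9 was called under every other setting run, with a difference of -1.87 under normexp. Adamts8 was lost without A1 or A2 (0.0798 each), without C2 (0.118), with only the arrays compared (0.0509) and with no filter on dim probes (0.0544). Adamts15 was lost without A1 or A2 (0.109 each), without C2 (0.135), with only the arrays compared (0.101), with the replicate number as a block (0.0787), with quantile scaling (0.0509), with a filter of at least 1 array (0.0618) and with no filter (0.0805). Adamts7 was lost with normexp, where the difference was 0.02, with array weights (0.0526), with only the arrays compared (0.0564), with a filter of at least 1 array (0.0522) or none (0.0595), with trended and robust variance (0.0575) and without C1 (0.0696) or C2 (0.088).

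A fit of the 6 fibroblast arrays alone, all on slide 2, was added after the data had been seen, because the Pu replicates differed more than those of A and B. It called 8 members for B minus C, beside 4.72% of all genes, 2 for A minus C, beside 1.36%, and 0 for A minus B, beside 0%. The 4 calls above were kept. The further genes for B minus C were Adamts17 (-2.78, limma adjusted p = 0.0187, 0.334 with all 8 arrays), Adamts5 (2.42, 0.0465 and 0.0832), Mmp23 (2.17, 0.0317 and 0.0661) and Mmp16 (at least 1.72-fold, 0.0259 and 0.26). Mmp16 was well above background on 0 C arrays, and with normexp its fitted B minus C difference went from 1.55 to -0.019. Adamts17, whose targets are little known, was at -1.31 and -0.92 in A, -2.35 and -2.04 in B and 0.20 and 0.96 in C, the same order of groups as for Adamts8, Adamts9 and Adamts15. Adamts5 ran the other way, with both B arrays highest and both C arrays lowest. For A minus C, the added fit called Adamts8 (-1.65, limma adjusted p = 0.0416) and Adamts9 (-1.30, 0.05 as rounded), which had adjusted p-values of 0.133 and 0.131 with all 8 arrays.

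**Figure D5:**
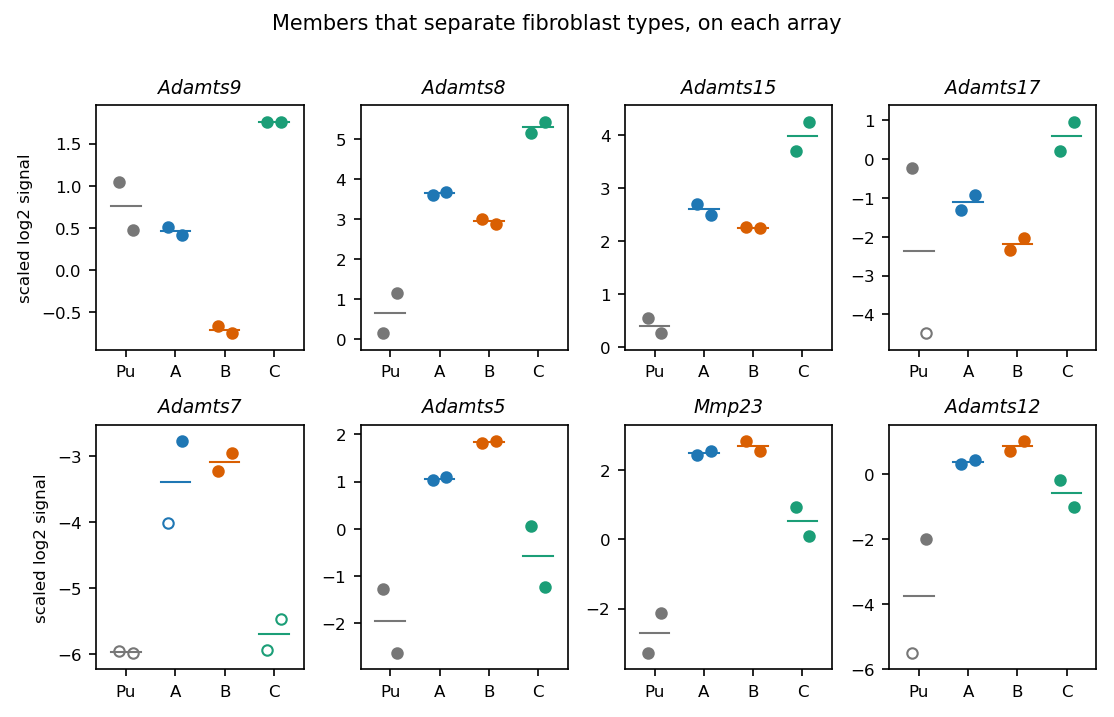
Scaled log2 level on each array of 8 members, among them the 4 called between B and C, with filled points well above background, open points not, and a bar at the group mean of 2 arrays; each panel has its own vertical axis. Adamts8, Adamts9, Adamts15 and Adamts17 are highest on the C arrays and lowest among the fibroblasts on the B arrays, whereas Adamts5, Mmp23, Adamts7 and Adamts12 are lowest, among the fibroblasts, on the C arrays.

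For Mmp2, Mmp3 and Adamts4, which rose over Pu by similar amounts in the 3 types, the intervals show how large a difference between types these arrays leave possible. Mmp23, whose rise over Pu was larger in A and B than in C, was not such a case, and its interval was 1.08 to 3.27 for B minus C. For Mmp2, the 95% interval was -0.47 to 0.96 for A minus B and -1.11 to 0.33 for B minus C. For Mmp3 it was -0.74 to 1.23 and -0.97 to 1.00, and for Adamts4 -0.70 to 0.70 and -0.89 to 0.51. Timp1, Timp2 and Timp3 were each lower on both C arrays than on the 4 A and B arrays. Such separation was common with 2 arrays a group: 26 of the 37 tested members did not overlap for A minus C and 27 for B minus C. The share over all genes was not counted. B minus C was 0.79 for Timp1, 0.92 for Timp2 and 0.82 for Timp3, and none passed (limma adjusted p = 0.555, 0.49 and 0.193). For Timp3 the 95% interval of this difference, which is not adjusted for the number of genes, was 0.20 to 1.44.

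Genes that work with these proteases were taken from lists by role, chosen with earlier results of these data known. For the counts below, 15.2%, 16.5% and 15% of all genes were called higher than Pu in A, B and C. The shares called lower were 11.9%, 13% and 13.8%. All 6 ADAMTS-like genes, which lack a protease domain, were tested, and 3, 5 and 3 were higher than Pu in A, B and C, with 0 lower. Adamtsl2 was higher than Pu by 1.90, 1.16 and 3.27, and lower in B than in C by 2.12 (limma adjusted p = 0.0105). The other 5 genes of this list were not called for B minus C, where their values lay above 0 and the median of the 6 was 1.04. Of 5 tolloids and procollagen C-proteinase enhancers, 4 were tested and 3 were higher in each type, among them Pcolce (3.78, 3.67 and 2.98). Of 8 lecticans and link proteins, which include the substrates of the proteoglycanases, 5 were tested and only Vcan, the gene of versican, was called. It was higher by 3.90, 4.67 and 3.77 in A, B and C (limma adjusted p = 0.000201, 0.000116 and 0.000267). Pcolce and Vcan, like Reck below, were picked after their values were seen.

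Of 10 other protease inhibitors and MMP regulators, 5 were tested and 3, 2 and 3 were higher in A, B and C. Reck, a membrane-anchored inhibitor of MMPs, rose by 2.19, 2.40 and 2.31 (limma adjusted p = 0.00329, 0.00224 and 0.00269). Among 6 clearance receptors and activating convertases, 2, 3 and 3 were higher. Pcsk6, a convertase that removes propeptides, was higher in A than in C by 2.50 and in B than in C by 4.06 (limma adjusted p = 0.0293 and 0.00278). Sdc4, a cell surface proteoglycan, was lower in B than in C by 2.02 (adjusted p = 0.031). Of 9 ADAM sheddases, 3, 3 and 2 were higher and 2, 2 and 1 lower than in Pu, and Adam33 was higher in B than in C by 2.04 (limma adjusted p = 0.0288).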

How the data were processed

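RNA from 4 groups of 2 samples was hybridised to 8 Agilent mouse arrays in 1 colour. The deposited scanner output, per the file headers from Agilent Feature Extraction 10.10.1.1, gives every spot a background-subtracted intensity and the software's other calls (well above background, saturated, outlier). The authors' deposited value table holds log2 values, each column being log2 of the processed signal minus a constant of its array (within 0.02 for 100% of 55653 probes, with a median of 4.84 in every column), and served as an alternative.

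Of 62976 spots, 59305 were not controls. Outlier spots were left out and spots of a probe averaged, 28 probes without a usable spot on an array were dropped, 55653 remained, and 0 values were saturated. Symbols came from the RefSeq table by accession for 28011 probes and otherwise for 4830, while 22812 stayed unnamed. Signals were put on the log2 scale and the 75th percentile of the array was subtracted. Probes had to be well above background on both replicates in some group, and of a gene's several such probes the brightest was used.

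All 8 arrays entered 1 fit of group means in limma 3.58.1 (R 4.3.3; 4 residual and 3.07 prior degrees of freedom), with p-values adjusted by Benjamini-Hochberg over 17253 genes in each of 7 comparisons. The number of arrays limits the precision. The script was tested on simulated data. The member genes, the lists by role and the markers were chosen with earlier results of these data known. The genes given with every array's value were the TIMPs, members called between types, and members called against Pu in the same direction in all 3 types or in both directions. Adamts5, Adamts12, Adamts17 and Mmp17 were added after their values were seen. Alternatives covered scaling, background correction, the dim-probe filter, the probe used, the variance model, the arrays fitted and a replicate block. Probe coordinates were not used here. Figures were drawn with matplotlib 3.10.9.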

Additional observations from a re-analysis of the deposited data

Results flagged for a closer look

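Adamts9 stood out because its difference from Pu went opposite ways in B-type and C-type fibroblasts and the difference between those effects was itself tested. B minus C was -2.46 on the log2 scale (SE 0.30, limma adjusted p = 0.0098), with both B arrays below both Pu arrays and both C arrays above them. B minus Pu was -1.47 and C minus Pu was 1.00, the second of which lost its call under 14 settings. B minus C itself was lost without B1 (adjusted p = 0.111) and without B2 (0.119) and was called under every other setting run.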

How the results depend on the processing

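With 22 planned settings and the added fit of the 6 fibroblast arrays, 2488 of 2710 recomputed values kept their direction and side of the threshold, 139 lost and 75 gained a call, and 8 changed sign, none of them a called difference. Of the members called in A, B and C minus Pu, 15 of 23, 16 of 25 and 15 of 22 were called under every setting that tested them, and 21 of 27 for the mean of the types. Requiring signal above background on all 8 arrays, which leaves fewer genes, gave 15, 15, 14 and 15 calls. For B minus C, normexp gave 7 calls, a filter of at least 1 array 2, no filter 1, only the arrays compared 1 and the 6 fibroblast arrays 8, in place of 4. A minus C went from 0 to 1 with normexp and to 2 with the 6 fibroblast arrays, and A minus B from 0 to 1 with array weights. The cause of these moves was not tested. Leaving out an array gave 0 to 0 calls for A minus B, 0 to 2 for A minus C, 0 to 8 for B minus C (0 without B1 or B2, 1 without C2, 2 without A1 or A2, 8 without Pu1 or Pu2), 17 to 28, 19 to 28 and 19 to 29 for A, B and C minus Pu and 25 to 30 for their mean. Differences that changed sign were those of Adamts19 without C2 (1.09 for A minus C and 0.73 for B minus C, against -2.64 and -3.005 without C1), Adamts7 in C minus Pu with the percentile over the probes detected on all 8 arrays (-0.042) and quantile scaling (-0.14), Adamts9 in A minus Pu with median scaling (0.029) and the authors' value table (0.03), and, with normexp, Mmp16 in B minus C (-0.019) and Mmp25 in C minus Pu (0.019). Replicate numbers share only a name, with correlations of deviations from -0.08 to 0.06, and the replicate block gave 0, 0, 3, 23, 24, 22 and 26 calls for A minus B, A minus C, B minus C, A, B and C minus Pu and their mean. Slide as a block could not be fitted, because each slide holds either Pu or fibroblasts only, and was not run. Signal near background limits Mmp15, Mmp16, Mmp25, Adamts7 and Adamts19.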
